A study of Drosophila melanogaster with 16 samples.

Results

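Male fruit flies that had breathed ethanol vapor were compared with males that had breathed humidified air, over the first 90 min after the vapor was removed. The comparison used 8 of the 16 arrays of the study, chosen by their labels: 4 ethanol arrays and 4 air arrays, one of each at 0, 30, 60 and 90 min of recovery. All flies were Drosophila melanogaster males, 2 to 4 days old and of Berlin background, and RNA came from heads. Exposure lasted 30 min, to ethanol vapor at 60% of saturation or to humidified air alone at the same flow, so the air flies shared the tubes, the handling and the gas flow. Recovery was in vials with food. Each array held 1 pool of 3 groups of 200 flies joined before RNA extraction. The pairs at 120, 180 and 210 min (6 arrays) and the 2 arrays of unexposed flies were used as reference. Values are log2 expression values, so a difference of 1 is a 2-fold difference. Because 1 array was made for each exposure and time, every error below is a spread over times. An SD contains any change during recovery as well as the variation between pools. An SE of a difference comes from a fit with time as a factor. Change shared by both exposures is removed from it, while change in their difference and the variation between pools remain.

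Flies meet ethanol in fermenting fruit, and the vapor first excites and then sedates them. Ethanol is oxidised through acetaldehyde to acetate, which enters lipid synthesis and energy metabolism as acetyl-CoA. After a sedating exposure flies become more tolerant of the next. The head holds the brain, eyes, antennae, fat body and muscle, and in a bulk head sample fewer cells of a type and less RNA per cell cannot be told apart.

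Before the comparison, the arrays were checked for transcripts that do not belong to heads. The air arrays at 0 and 60 min carried transcripts of male accessory gland, testis and midgut, and the other 6 arrays compared did not. The 17 accessory gland and duct genes averaged 8.88 and 7.38 (log2) in the air arrays at 0 and 60 min. In the air arrays at 30 and 90 min they averaged 3.79 and 3.79, and in the 4 ethanol arrays 3.73 to 3.80, next to 3.77 and 3.72 in the unexposed arrays. The 11 midgut genes stood at 7.55 and 6.47 in the same 2 air arrays and at 2.75 to 2.86 in the other 6. The 9 testis genes stood at 5.81 and 5.38 there, against 2.81 to 2.95 elsewhere. The 3 Malpighian tubule genes measured, which heads also express, stood between 6.88 and 7.33 in all 8 arrays.

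These genes were set apart by a rule that used none of the 8 arrays: membership of a body-tissue list, or a level in the air array at 120 min, which carries the same transcripts, at least 1 log2 unit above every other late air array and both unexposed arrays. The rule took 105 genes, 97 of them by level and 40 by list, with some taken by both. The earlier filter, log2 4 or more in at least 3 of 16 arrays, did use the 8 arrays. Of the 97, 96 reached log2 4 in the air array at 0 min and 6 in that at 30 min. Most therefore passed the filter partly through the air arrays at 0 and 60 min. Their differences at those times are partly fixed by the filter and are given as a description. The gene nearest inside the level threshold stood 1.16 above its reference and the nearest outside, CG8997, 0.999. The median ethanol minus air difference of the genes set apart was -3.66 at 0 min, -0.003 at 30 min, -2.78 at 60 min and 0.01 at 90 min. Of the genes more than 1 log2 unit lower after ethanol, 96 of 117 at 0 min and 91 of 129 at 60 min were genes set apart, but 0 of 24 at 30 min and 3 of 58 at 90 min. Their largest differences were in Cyp4g1, a cytochrome P450 of hydrocarbon synthesis in oenocytes, and in the seminal fluid genes EbpII and Acp98AB. Cyp4g1 stood at 12.65, 3.56, 11.71 and 5.36 in the air arrays and at 3.57, 3.57, 4.21 and 3.61 in the ethanol arrays. None of these genes is counted as an ethanol response below, and none was called.

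**Figure D1:**
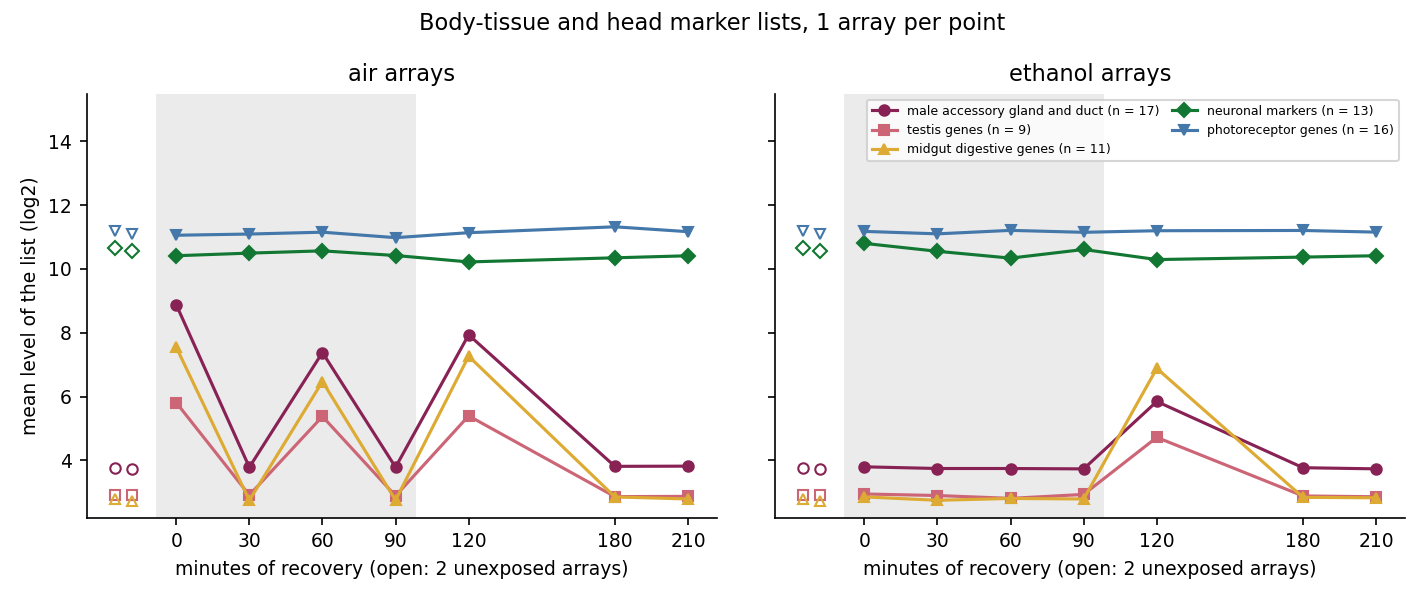
Mean log2 level of 3 body-tissue lists and 2 head lists in each array (vertical axis) against minutes of recovery (horizontal axis), with air arrays on the left, ethanol arrays on the right, the 2 unexposed arrays as open symbols and the 4 times compared shaded. The body-tissue lists stand high in the air arrays at 0, 60 and 120 min and in the ethanol array at 120 min, while the neuronal and photoreceptor lists stay between 10.2 and 11.3 in all arrays.

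Markers of head tissue were present on every array. The 13 neuronal markers averaged 10.4 to 10.6 in the 4 air arrays and 10.3 to 10.8 in the 4 ethanol arrays. The 16 photoreceptor genes averaged 10.98 to 11.15 in air and 11.10 to 11.21 after ethanol. Array medians over all probe sets lay between 2.88 and 3.03. Over the 8110 genes kept, the median ethanol minus air difference was 0.15 at 0 min and within 0.01 of zero at 30, 60 and 90 min. A difference at 0 min thus sits on a small upward shift of the genes kept.

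Over the 4 matched times 2 genes rose past the test after ethanol, jhamt and CG15673. That is 0.0247% of the 8110 genes tested (limma with time as a factor, Benjamini-Hochberg adjusted p under 0.05), and 0 genes fell (0.0%). At an unadjusted p under 0.05 there were 953 genes. The fit has 3 residual degrees of freedom, and the smallest p of an exact two-sided sign-flip test over 4 pairs is 0.125.

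jhamt encodes juvenile hormone acid methyltransferase, which completes juvenile hormone synthesis in the corpora allata, the endocrine glands that make this hormone. It stood at 5.03, 5.84, 5.77 and 6.11 in the air arrays at 0, 30, 60 and 90 min. In the ethanol arrays it stood at 7.20, 7.58, 8.0 and 8.51. The lowest ethanol value was above the highest air value, and both unexposed arrays (5.34 and 5.28) lay in the air range. Mean levels were 5.69 ± 0.46 (SD over 4 times) in air and 7.82 ± 0.56 after ethanol. The difference was 2.14 ± 0.12 (SE, limma adjusted p = 0.0194). Both exposures had their lowest level at 0 min and their highest at 90 min, and the difference stayed between 1.74 and 2.40.

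CG15673, a gene with no established function, stood at 6.13, 6.59, 6.03 and 6.03 in air and at 8.09, 8.34, 7.82 and 7.46 after ethanol. Its groups did not overlap either, and the unexposed arrays stood at 6.13 and 6.09. The difference was 1.74 ± 0.10 (SE, limma adjusted p = 0.0194), a 3.33-fold higher level.

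Both calls depended on the pairs used. Without the 0 min pair jhamt differed by 2.12 (adjusted p = 0.0379) and CG15673 by 1.66 (0.0246). Leaving out the 30, 60 or 90 min pair ended both calls, with differences of 2.05 to 2.27 for jhamt and 1.72 to 1.84 for CG15673. The 30 and 90 min pairs, in which the body-tissue lists stood at their unexposed level, gave 2.07 and 1.59 with adjusted p of 0.164 and 0.128. Adding the mean level of body-tissue genes as a covariate also ended both calls, with differences of 2.08 for jhamt (adjusted p = 0.101) and 1.58 for CG15673 (adjusted p = 0.0788).

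A rule of size that needs no estimate of spread, more than 1 log2 unit in one direction at all 4 times, took 6 genes or probe sets above air (0.074% of 8110) and 1 below (0.0123%). Above air were jhamt, CG15673, Drat and the probe sets 1639571_s_at, 1626821_s_at and 1625050_s_at. The first 2 of these probe sets are shared by several genes in the array annotation and the third is assigned to no gene.

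Drat, which encodes a predicted oxidoreductase, was already abundant in air, at 12.04, 12.13, 12.44 and 12.07. After ethanol it stood at 13.10, 14.01, 14.12 and 13.84, with the unexposed arrays at 12.19 and 12.04. Every ethanol value lay above every air value, and the difference was 1.60 ± 0.15 (SE, adjusted p = 0.101, not called). Probe set 1639571_s_at had the widest gap of the 6, with 5.0, 5.04, 5.73 and 6.39 in air and 7.82, 9.77, 10.32 and 10.79 after ethanol. Its difference was 4.14 ± 0.33 (SE, adjusted p = 0.0575, not called). Probe set 1626821_s_at stood at 5.23 to 5.70 in air and at 6.51, 8.14, 8.42 and 8.79 after ethanol. Probe set 1625050_s_at stood at 5.95 to 6.13 in air and 6.97 to 7.58 after ethanol, but its unexposed arrays stood at 6.64 and 6.61, between the 2 exposures.

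When the spread was estimated from all 7 recovery times, 15 genes or probe sets were called above air over the first 90 min (0.185%) and 4 below (0.0493%). The 15 included jhamt, CG15673, Drat, Tdc1, Pino, CG16926, aay, CG13116 and CG46491. The 4 were a5, a10, Jhedup and GstE4. These genes are described with the 4-time fit below, in which jhamt and CG15673 alone passed the threshold.

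Tdc1 encodes a tyrosine decarboxylase, which makes tyramine, and its difference was widest at the end of exposure. In air it stood at 6.76, 6.80, 6.75 and 6.62. After ethanol it stood at 8.83, 8.60, 7.99 and 7.58, so the gap was narrower at each later time and still open at 90 min. The mean difference was 1.52 ± 0.20 (SE, adjusted p = 0.117). Pino had its widest gap at 30 min and narrower ones at 60 and 90 min, with 10.90, 10.94, 10.81 and 10.81 in air and 12.16, 12.27, 11.68 and 11.63 after ethanol.

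**Figure D2:**
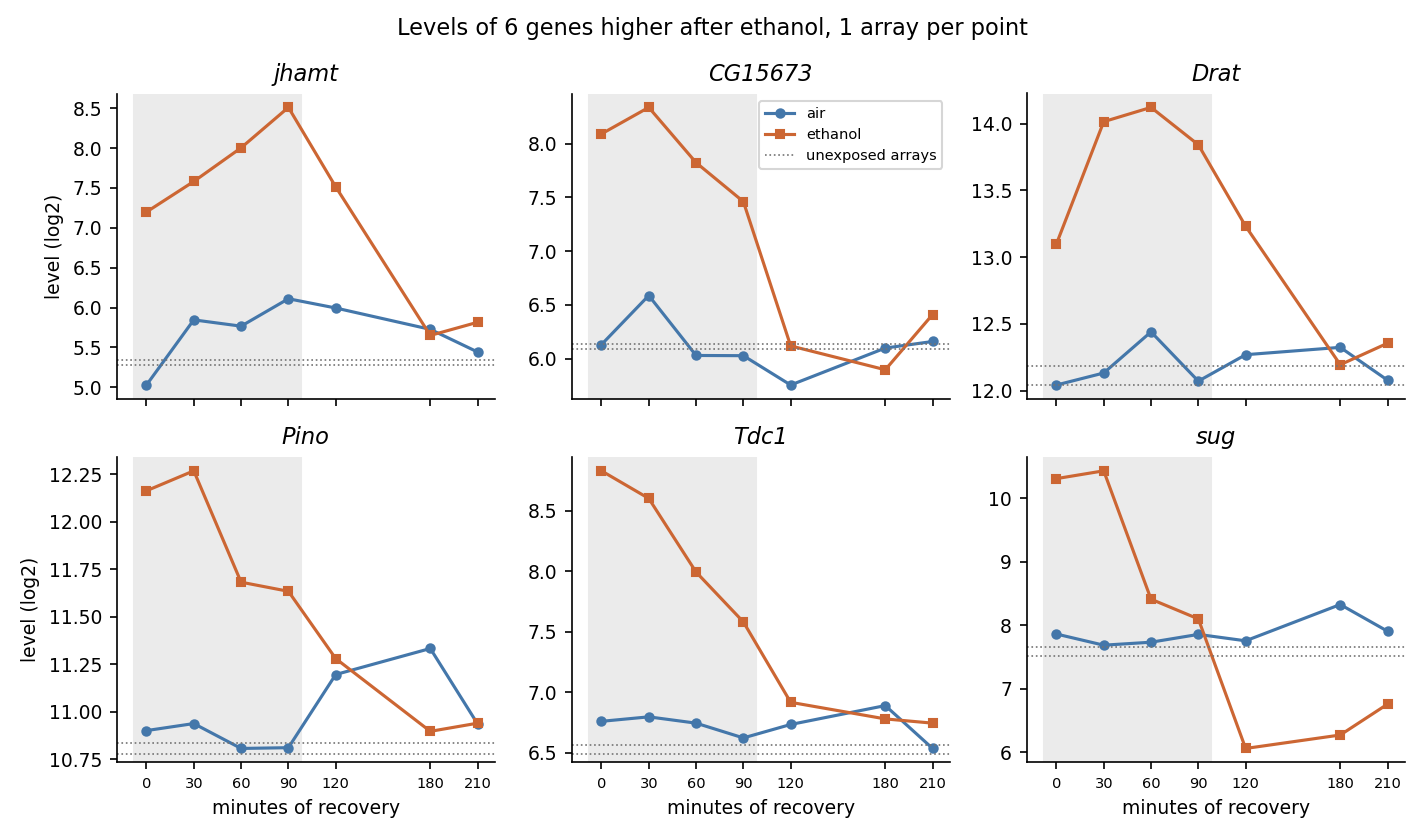
Log2 level (vertical axes, which do not start at 0) of 6 genes against minutes of recovery (horizontal axes) in air arrays (circles) and ethanol arrays (squares), 1 array per point, with the 2 unexposed arrays as dotted lines and the first 90 min shaded. Ethanol values lie above air values at all 4 shaded times in each gene, and jhamt alone of the 6 has its highest ethanol value at 90 min.

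Of 23 amino acid and one-carbon enzymes, 3 stood above air at all 4 times (13%, background 16.2%) and 3 below (13%, background 4.64%), the latter Gnmt, Oat and Shmt, with a median difference of -0.007 and 0 called. With medians set equal 4 stood above and 4 below. Single enzymes of amino acid and cofactor metabolism are given here because they stood above air, so they do not describe the list. Of them, ppl and Nadk1a are not in the list. aay, the phosphoserine phosphatase of serine synthesis, stood at 11.53 to 11.63 in air and 12.27 to 12.47 after ethanol, a difference of 0.78 ± 0.08 (SE, adjusted p = 0.11). ppl, a protein of the glycine cleavage system, stood at 11.11 to 11.32 in air and 11.65 to 11.95 after ethanol. Nadk1a, a NAD kinase, stood at 9.89 to 10.29 in air and 10.77 to 10.97 after ethanol. AsnS, asparagine synthetase, started near air (7.86 and 8.09 at 0 min) and stood at 8.94 against 7.68 by 90 min. Nmdmc, an enzyme of the folate cycle, stood at 9.41 to 9.87 in air and at 10.22 to 10.88 after ethanol. None of these 5 enzymes was called. The share of all genes tested whose groups did not overlap was not counted. Non-overlap is therefore given throughout as a description of single genes only.

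Of the remaining genes with the smallest p above air, CG16926, CG13116, CG12643, CG46491 and CG5346 have no function that can be stated here. CG13116 differed by 1.22 and CG12643 by 1.15, and the other 3 by 0.74 to 0.87. Their groups did not overlap, but these genes were picked by smallest p.

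Hr38, a nuclear receptor gene switched on by neuronal activity, differed by a similar amount at each time while its level moved widely in both exposures. In air it stood at 6.49, 8.05, 8.71 and 7.96, and after ethanol at 7.18, 8.83, 9.86 and 9.12. The groups therefore overlapped, although each ethanol array stood above the air array of its own time, by 0.68 to 1.17. The unexposed mean of Hr38 was 6.85, so that air arrays at 30, 60 and 90 min also stood above unexposed flies.

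No gene fell past the test. The named genes with the smallest p below air were PNUTS, a10, a5, GstE4, Jhedup, CG32425, Pld, Obp59a, Os-C, SC35, CG3594 and Obp19a. Of these 12, the genes a10, a5, Jhedup, Obp59a, Os-C and Obp19a belong to the list of 16 antennal olfactory genes, which includes odorant-binding proteins of the fluid around olfactory neurons and the odorant co-receptor.

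The antennal list was lower after ethanol at all 4 times in 13 of its 16 members (81.2%), where 4.64% of all genes tested were. Its median difference over the 4 times was -1.34, against 0.03 for all genes tested, and 0 members were called. By time the median was -0.20 at 0 min, -2.13 at 30 min, -1.57 at 60 min and -1.43 at 90 min. The 3 members not lower at every time were Snmp1, lz and ss, with mean differences of -0.19, 0.16 and -0.07. The list was written with 27 genes, of which these 16 were kept. The filter, log2 4 or more in at least 3 of 16 arrays, used the arrays compared. All 16 reached log2 4 in the air array at 30 min, and 14 did in the ethanol array at 30 min. The filter may thus have favored members high in air, and the share is given as a description.

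a5, an antennal protein gene, stood at 7.32, 8.68, 7.98 and 8.60 in air and at 6.30, 5.91, 5.65 and 6.54 after ethanol. It was the gene below air by more than 1 log2 unit at all 4 times, with a difference of -2.05 ± 0.28 (SE, adjusted p = 0.117). a10, an antennal chemosensory protein gene, stood at 9.48, 10.41, 9.97 and 10.44 in air and 8.78, 8.77, 8.42 and 8.92 after ethanol. Its difference was -1.35 ± 0.17 (SE, adjusted p = 0.117).

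Obp84a, an odorant-binding protein gene, stood at 4.76, 6.67, 5.74 and 6.45 in air and 4.64, 3.93, 3.22 and 3.59 after ethanol, so the 2 exposures nearly met at 0 min and were 2.53 to 2.86 apart from 30 min on. lush, whose protein binds a pheromone and short alcohols, stood at 7.68, 9.10, 8.48 and 8.81 in air and 7.59, 6.58, 7.06 and 7.55 after ethanol. Orco, the obligate partner of most odorant receptors, was low throughout, at 3.89, 4.79, 4.86 and 4.96 in air and 3.85, 3.56, 3.53 and 3.63 after ethanol. At 0 min the ethanol and air values were close in Obp84a (4.64 and 4.76), lush (7.59 and 7.68) and Orco (3.85 and 3.89).

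The small gap at 0 min had a low air value on one side. The antennal list averaged 7.55 in the air array at 0 min, against 8.13 to 8.63 in the other 3 air arrays compared and 8.30 and 8.34 in the unexposed arrays. The ethanol arrays averaged 7.26, 6.85, 6.69 and 7.18, all below every air array. The air arrays at 0 and 60 min, the 2 with body-tissue transcripts, had the lowest antennal means of the 4. The later air arrays did not follow that order. The air array at 120 min, which carries the same transcripts, averaged 8.65. Those at 180 and 210 min, without them, averaged 8.07 and 8.66. The part of those transcripts in the antennal values was not tested. Without the 0 min pair, a10, a5, Obp84a, Obp59a, Os-C, Jhedup, Orco and GstE4 were called below air (limma adjusted p of 0.00845 to 0.0489) along with CG30431. These are the 9 genes called below air in that fit.

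**Figure D3:**
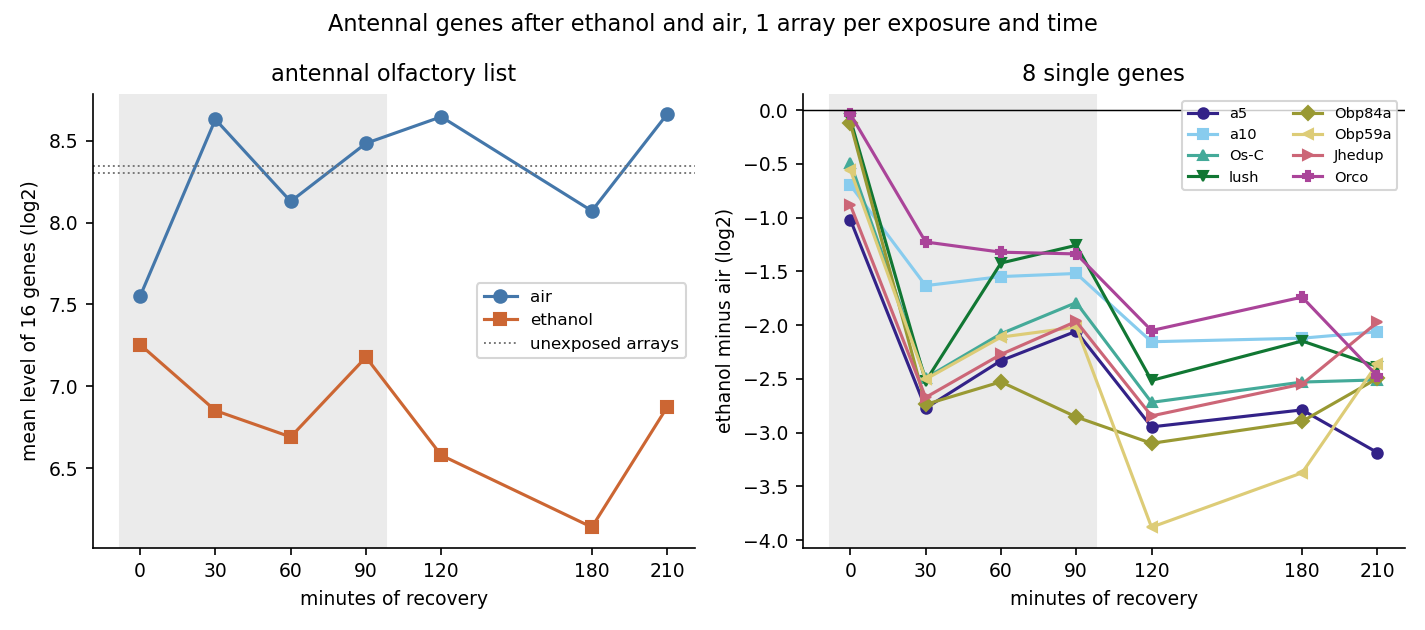
Left, the mean log2 level of the 16 antennal olfactory genes by minutes of recovery in air and ethanol arrays, with the unexposed arrays as dotted lines; right, the ethanol minus air difference (log2) of 8 single genes, 1 array pair per point, with the first 90 min shaded. The list mean after ethanol is 7.26 or lower at the 4 shaded times, and all 8 genes lie below zero there, closest to it at 0 min.

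Genes outside the antennal list were also among those with the smallest p below air. PNUTS, the gene of a nuclear targeting subunit of protein phosphatase 1, stood at 8.83 to 9.11 in air and 8.19 to 8.60 after ethanol, a difference of -0.56 ± 0.07 (SE, adjusted p = 0.117). SC35, a splicing factor gene, stood at 9.01, 9.0, 8.99 and 8.77 in air and at 8.80, 8.51, 8.36 and 8.11 after ethanol. CG32425 stood at 10.94, 10.69, 10.48 and 10.78 in air and 10.44, 9.86, 9.04 and 9.64 after ethanol.

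The glutathione S-transferases, which conjugate glutathione to reactive compounds, went both ways. Of 27 measured, 10 were above air at all 4 times (37.0%, background 16.2%) and 2 below (7.41%, background 4.64%), and 0 were called. With medians set equal 8 stood above and 4 below. GstE4 stood at 7.16, 8.47, 7.69 and 8.61 in air and 6.18, 6.18, 5.77 and 5.80 after ethanol, a difference of -2.0 ± 0.29 (SE, adjusted p = 0.117). Its neighbours on the chromosome stood on the other side of air. GstE3, the next GstE gene on one side, stood at 10.79, 10.82, 11.06 and 11.53 in air and 11.44, 12.44, 12.82 and 13.02 after ethanol. GstE5, the adjacent gene on the other side, stood at 6.19 to 6.65 in air and 6.73 to 7.22 after ethanol. GstE1, GstE2, GstE7 and GstE9 of the same cluster also stood above air at each time, by mean differences of 0.49, 0.21, 1.13 and 0.25, and GstE6 at 3 of 4 times. GstE4 thus had the opposite sign to the 6 measured genes of its cluster that kept one side of air, and neither it nor any of them passed the test.

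The genes that stood furthest from both air and unexposed flies were not the same at each time. At 0 min 35 genes stood at least 1 log2 unit above both references and 5 below. The counts were 38 and 17 at 30 min, 50 and 35 at 60 min, and 54 and 39 at 90 min. Between the 2 unexposed arrays 5 genes differed by more than 1. These are counts from single arrays with no test.

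The 3 genes furthest above both references at 0 min were sug, cbt and Tdc1. sug (sugarbabe), a zinc finger factor of the sugar response, stood at 7.86, 7.69, 7.73 and 7.86 in air and 10.31, 10.44, 8.41 and 8.10 after ethanol. It thus differed by 2.45 and 2.75 at 0 and 30 min and by 0.68 and 0.24 at 60 and 90 min. cbt (cabut), another zinc finger factor that answers sugar and stress, stood at 11.03, 11.71, 11.30 and 11.05 in air and 13.24, 13.01, 11.84 and 11.52 after ethanol. Gadd45, a stress-inducible gene, was level in air, at 4.29 to 4.36, and stood at 5.29, 6.64, 4.88 and 4.32 after ethanol, highest at 30 min and level with air by 90 min. puc, the phosphatase that restrains Jun kinase signalling, also had its widest gap at 30 min, with 9.30 in air and 10.65 after ethanol.

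Cyp6a8, Agpat2 and Lsd-1 had their narrowest gap at 0 min. Cyp6a8, a cytochrome P450, stood at 8.79, 8.91, 8.91 and 9.72 in air and 9.22, 10.53, 11.23 and 11.92 after ethanol. Agpat2, an acyltransferase of phospholipid synthesis, stood at 7.63, 7.96, 7.90 and 8.05 in air and 8.31, 8.90, 9.31 and 9.58 after ethanol. Lsd-1, a coat protein of lipid droplets, differed by 0.31 at 0 min and by 1.40 to 1.47 afterwards. edin, a gene induced by infection, stood apart at 60 min with 6.80 after ethanol, and at 4.19 to 4.98 in the other 7 arrays. CG13069 was low in the ethanol array at 0 min, with 2.99, and at 5.41 to 6.27 in the other 7.

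Whether the difference changed steadily over the 90 min was tested as a slope per hour. No gene passed (0.0% of 8110, smallest limma adjusted p 0.404, 836 at an unadjusted p under 0.05). Among the negative slopes of the named genes, phu had the smallest p. It stood at 8.64, 8.78, 7.90 and 8.48 in air and at 8.56, 7.49, 5.84 and 5.01 after ethanol. Its slope was -2.19 ± 0.16 log2 units per hour (SE, adjusted p = 0.404). The positive slopes named were those of CG13004, CG14200, GstE7, CTCF and CG12268, at 0.81 to 1.0 per hour. CTCF, which encodes a chromatin insulator protein, was level in air, at 7.25 to 7.33, and stood at 7.66, 8.07, 8.47 and 8.83 after ethanol.

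The first 90 min were then set against the ethanol minus air difference at 120, 180 and 210 min. No gene passed this test (0.0% of 8110, smallest adjusted p 0.179, 942 at an unadjusted p under 0.05), so no difference between the 2 windows is established for any gene named here. Over the 8110 genes the median ethanol minus air difference was -0.03 at 120 min and -0.17 at 180 min, against 0.15 at 0 min. A difference at 180 min therefore sits on a small downward shift of the genes kept. The ethanol array and the air array at 120 min both carry body-tissue transcripts. Without that pair 18 genes were called with a higher early difference, jhamt and CG15673 among them, and 5 with a lower one.

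CG15673 had the smallest p, with differences of 1.96, 1.75, 1.80 and 1.43 at 0 to 90 min and 0.36, -0.20 and 0.25 at 120, 180 and 210 min. The early minus late contrast was 1.60 ± 0.18 (SE, adjusted p = 0.179). jhamt differed by 1.52 at 120 min and by -0.08 and 0.37 at 180 and 210 min. Drat differed by 0.96, -0.13 and 0.28 at those times, Tdc1 by 0.18, -0.11 and 0.21, and Pino by 0.08, -0.43 and 0.01. sug stood below air late, by -1.70, -2.06 and -1.15, having stood above it early.

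The antennal list stayed below air late by its median. Some single gaps were wider than the early ones and some narrower. Jhedup differed by -1.97 at 210 min and by -2.67 at 30 min. a5 differed by -2.95, -2.79 and -3.19 at 120, 180 and 210 min and Obp59a by -3.88, -3.37 and -2.36, and GstE4 also stood lower, by -2.64, -2.23 and -2.09. The median of the 16 antennal genes was -2.41, -2.27 and -2.11. Gnmt, which uses S-adenosylmethionine to methylate glycine, differed by -0.68 to -0.06 in the first 90 min and stood above air by 1.27, 2.79 and 2.49 later. Shmt, serine hydroxymethyltransferase, had a mean difference of -0.05 early and stood above air by 0.47, 0.85 and 0.94 late.

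**Figure D4:**
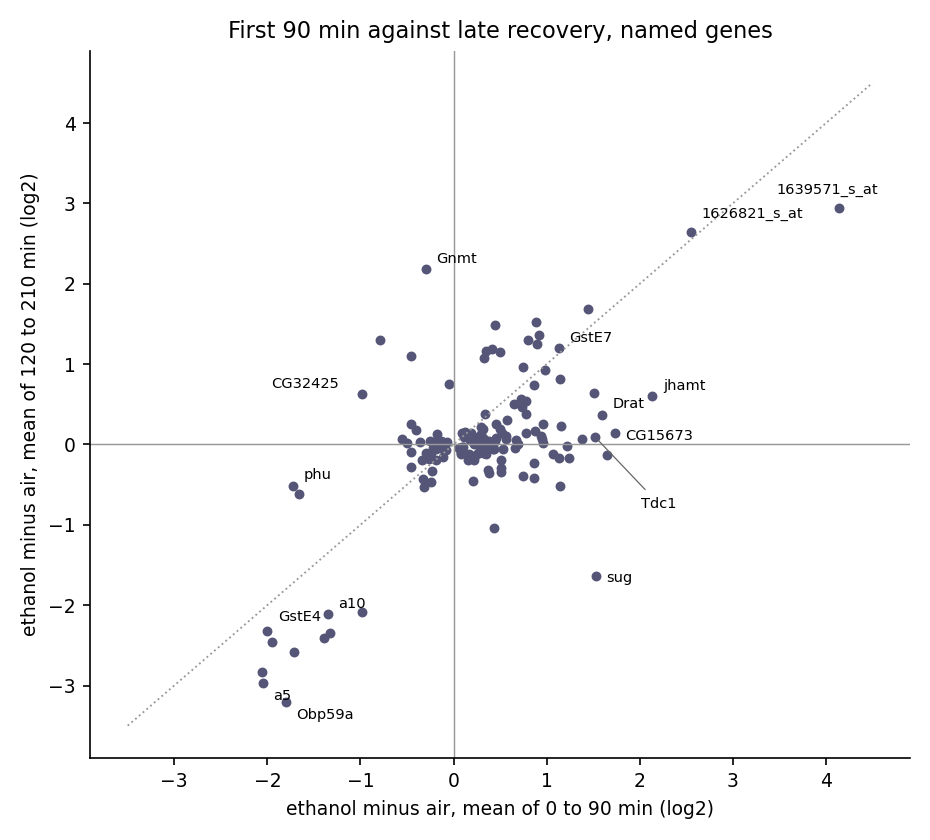
Mean ethanol minus air difference at 120 to 210 min (vertical axis, log2) against the mean difference at 0 to 90 min (horizontal axis, log2) for the genes named by rule, set-apart genes left out, 1 point per gene; the dotted line marks equal differences. jhamt, CG15673, Drat and Tdc1 lie to the right near zero late difference, the antennal genes lie at the lower left on or below the line, and sug and Gnmt lie in opposite corners.

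Gene lists were read as counts against the background of all genes tested: 1312 of 8110 stood above air at all 4 times (16.2%) and 376 below (4.64%). That split leans upward with the shift at 0 min; with array medians set equal it was 867 above (10.7%) and 952 below (11.7%). No member of any list was called. Some lists share members, so their counts are not independent. ACC and FASN1 are in the sugar, ethanol and lipid lists, and bmm, Desat1 and Lip4 are in the sugar and lipid lists.

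Activity-regulated genes, which neurons switch on when they fire, stood above air at all 4 times in 11 of 14 members, 10 with medians set equal. Their median difference was 0.39. Beside Hr38, cbt and puc, Arc2 stood at 5.58, 5.93, 5.94 and 6.05 in air and 6.0, 6.53, 6.79 and 7.07 after ethanol. sr (stripe), a transcription factor, differed by 0.85 at 0 min and 0.10 to 0.64 later. kay, the fly Fos, differed by 0.41 at 0 min and by -0.08 to 0.04 later, and Arc1 by -0.09 to 0.37.

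Sugar and fasting genes stood above air at all 4 times in 13 of 21 members, 8 with medians set equal, with a median of 0.16. Pepck1, the gluconeogenic phosphoenolpyruvate carboxykinase, stood at 13.34, 13.11, 12.69 and 12.78 in air and 13.77, 13.97, 13.99 and 13.96 after ethanol. bmm (brummer), the main lipase of lipid droplets, differed by 0.72, 0.95, 0.82 and 0.28.

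Of 10 genes of ethanol and acetate metabolism, 5 stood above air at all 4 times, but 2 above and 2 below with medians set equal. The list was written with 18 genes, of which these 10 were kept. Adh and Aldh, the alcohol and aldehyde dehydrogenase genes, are not among the 10. AcCoAS, which joins acetate to coenzyme A, stood at 12.24 to 12.46 in air and at 12.69, 12.84, 13.31 and 13.54 after ethanol. Men, the malic enzyme that supplies NADPH for lipid synthesis, stood at 11.94 to 12.09 in air and at 12.20, 12.59, 12.97 and 13.33 after ethanol. FASN1, fatty acid synthase, differed by 0.23, 0.23, 0.46 and 0.76. Among 22 lipid genes, 10 stood above air at all 4 times and 0 below, and 7 above and 2 below with medians set equal. CG5966 of this list was among the 3 genes furthest below both air and unexposed flies at 90 min, by -2.55.

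Heat shock and chaperone genes stood above air at all 4 times in 10 of 15 members, with a list median of 0.11. With medians set equal 6 stood above and 1 below, and with quantile scaling 4 above and 1 below. DnaJ-1, a co-chaperone, stood at 11.40, 11.40, 11.57 and 11.78 in air and 12.30, 12.72, 12.30 and 12.35 after ethanol. stv (starvin), a BAG-domain co-chaperone, differed by 0.32 to 0.82. The small heat shock genes Hsp26 and Hsp27 and the larger heat shock gene Hsp68 had their widest early gaps at 90 min, with 0.69, 0.93 and 1.14, and stood 0.95 to 1.70 above air at 120, 180 and 210 min.

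For some lists the counts depended on the scaling. Of 52 cytochrome P450 genes, 8 stood above air at all 4 times and 3 below, and 8 above and 8 below with medians set equal. Of 13 neuronal markers, 0 stood on one side of air at all 4 times with either scaling. Oxidative phosphorylation genes had a median of -0.02, with 1 of 53 above and 3 below, and 23 below with medians set equal. Muscle genes had 0 of 18 above and 3 below, and 9 below with medians set equal, with a median of -0.09. Cytosolic ribosomal protein genes had a median of 0.04.

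**Figure D5:**
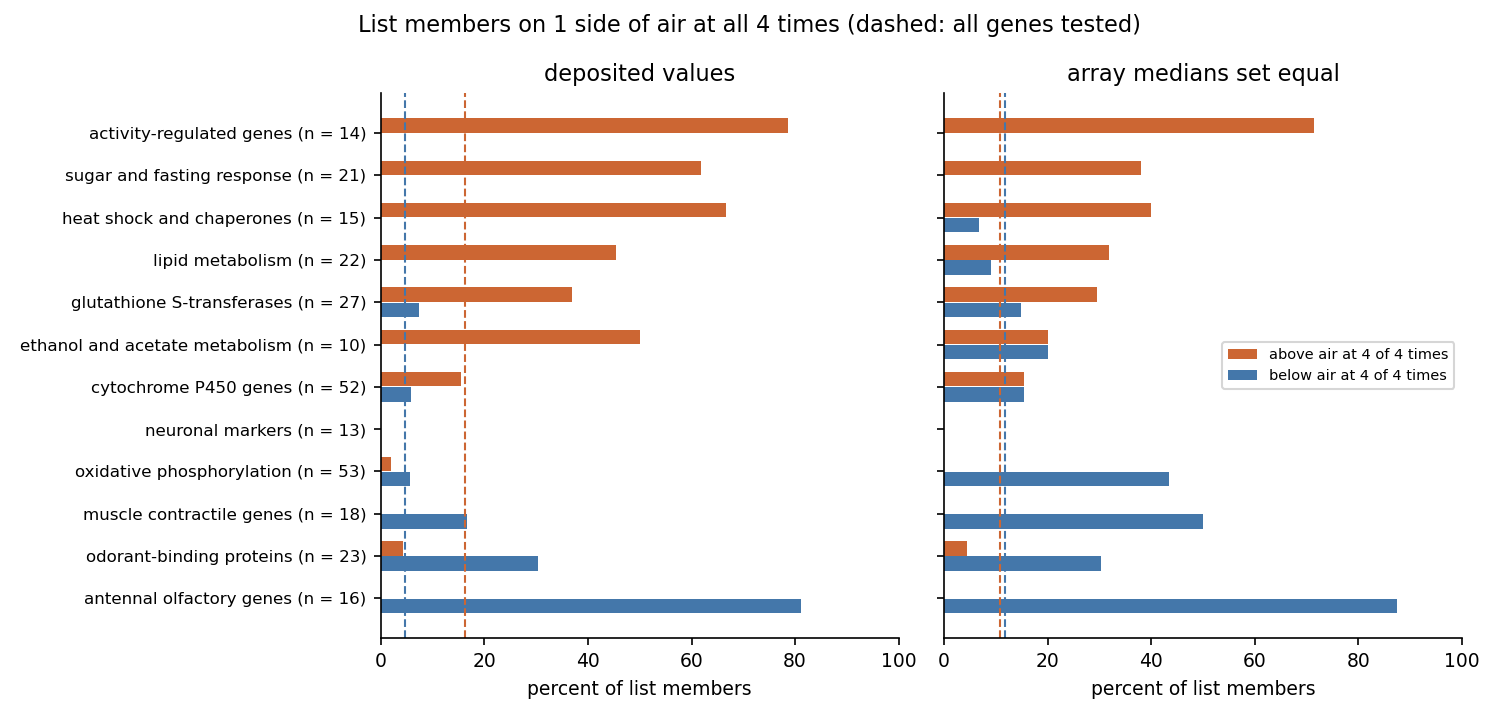
Percent of list members (horizontal axis) that stood above air (upper bars) or below air (lower bars) at all 4 times for 12 lists, with the deposited values on the left and array medians set equal on the right; dashed lines give the same percents over all genes tested. The antennal list stands furthest below air and the activity-regulated list furthest above in both panels, while oxidative phosphorylation and muscle genes differ between panels.

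Genes long studied in fly alcohol behaviour had small differences. Tbh, which makes octopamine and is needed for tolerance, differed by 0.11 ± 0.11 (SE, adjusted p = 0.774), and its groups overlapped. hang, a zinc finger gene needed for tolerance, differed by 0.19 ± 0.11 and slo, a calcium-activated potassium channel gene, by 0.10 ± 0.10. scb, an alpha integrin gene, stood at 6.63 to 6.87 in air and 7.05 to 7.65 after ethanol, a difference of 0.67 ± 0.10 (SE, adjusted p = 0.117). Of the 21 alcohol behaviour genes, 5 stood above air at all 4 times (23.8%) and 0 below, and 3 above and 2 below with medians set equal.

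Of the clock genes, vri, a transcriptional repressor of the clock, had the widest early gap. It stood at 11.30, 11.25, 11.16 and 11.12 in air and 12.01, 11.88, 11.77 and 11.19 after ethanol. The clock repressors per and tim differed by 0.29 and 0.26 on average, with differences at single times of -0.01 to 0.45 for per and 0.11 to 0.44 for tim. The immune gene Drs differed by -0.65 to 0.78 from time to time, with a mean of 0.13 ± 0.24 (SE).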

How the data were processed

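Log2 values of Affymetrix Drosophila 2.0 arrays were used as the authors deposited them. Per the submitters' processing notes the authors computed them with GCRMA (version not given in the sources used here), which quantile normalizes arrays and so hides changes in total RNA. Head RNA was isolated with Trizol and biotin labelled, per the labels.

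Of 18952 probe sets, 183 controls were left out. Symbols were taken by Entrez ID from the annotation of the array and RefSeq: 13647 probe sets had 1 symbol, 402 several and 4720 none, and the last 2 kinds were tested but not named as genes. A gene was represented by its brightest probe set (782 kept genes had more than one) and kept at log2 4 or more in at least 3 of 16 arrays, which left 8110 of 17104. Array precision is limited by the number of arrays.

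Differences were fitted with limma 3.58.1 (R 4.3.3) with time as a factor and Benjamini-Hochberg adjustment over all genes kept, called at adjusted p under 0.05. The slope per hour and the early minus late contrast were fitted the same way. Tables used pandas 2.3.3 and numpy 2.4.6 under Python 3.11.15, plots used matplotlib 3.10.9, and the fits were tested on simulated data. Genes were named by a rule: the 12 rises and 12 falls with the largest called difference, filled by smallest p among genes on one side of air at 4 of 4 times; 5 in each direction for slope and contrast; the 3 furthest each way at each time; up to 3 members of each list; the 3 largest genes set apart; and a fixed set that covers clock, ethanol, activity and stress genes. The text gives a selection of these, and a gene outside the rule was singled out after its values were seen. The comparison, the members and the gene lists were chosen with earlier results of these data known. Alternatives were filters, scalings, probe sets, variance models, pairing, left-out pairs and a body-tissue covariate. Some genes are not analysed here.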

Additional observations from a re-analysis of the deposited data

Results flagged for a closer look

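In each of the 76 genes and probe sets described in the comparisons above, the highest and lowest of the 4 air values and of the 4 ethanol values were compared with the rest of their group by Dixon's test at the 95% level, which flags about 1 group in 20 by chance. Of 152 groups, 8 had a value set off from the other 3. Each array stands for another recovery time, and time and array cannot be told apart.

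In the ethanol arrays at 0 min, CG13069 was low at 2.99 (next 5.48), CG12643 at 7.18 (next 7.65) and Pepck1 at 13.77 (next 13.95). In the ethanol array at 30 min DnaJ-1 was high at 12.72 (next 12.35). In the air array at 0 min Orco was low at 3.89 (next 4.79). In the air array at 90 min Cyp6a8 was high at 9.72 (next 8.91), GstE7 was high at 9.77 (next 9.30) and SC35 was low at 8.77 (next 8.99).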

How the results depend on the processing

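The 2 calls above air became 0 with no filter on low values and with a body-tissue score as covariate, 5 with a filter at log2 6, 5 with the genes set apart left out, 4 at adjusted p under 0.10, 15 with the spread from all 7 times, 33 without pairing by time, 34 with trended and robust variances and 64 with minutes as a linear term. Leaving out one time pair gave 0 to 15. The 0 calls below air became 2 with trended and robust variances, 4 with the spread from all 7 times, 4 without pairing, 4 with linear minutes, 1 without the 0 and 60 min pairs, and 0 to 9 with one pair left out. The highest counts, 15 and 9, came without the 0 min pair. For the slope, 1 gene (phu) was called lower with trended and robust variances. For early minus late, CG15673 alone (1 gene) was called with quantile or with median scaling, and leaving out one pair gave 0 to 18 higher and 0 to 5 lower, the highest without the 120 min pair. The 6 genes above air by more than 1 log2 unit at all 4 times became 3 with median scaling, 21 at 1.5-fold, 18 without the 0 and 60 min pairs and 7 to 17 with one pair left out; the 1 below became 3 with quantile scaling, 3 with median scaling, 5 at 1.5-fold, 16 without the 0 and 60 min pairs and 1 to 15 with one pair left out. Removing pairs from that rule can add genes by its construction; the cause of the other shifts was not tested. The settings for the size rule without those pairs, beyond unexposed flies, and with other filters or probe sets were chosen after seeing the data. The 105 genes set apart numbered 101 by a rule on the air arrays at 0 and 60 min and 111 at 1.5-fold.

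Signs turned in 9 genes, of which 5 were set apart as body tissue. Without the 0 and 60 min pairs the differences were 0.02 for Acp98AB, 0.005 for EbpII, 0.005 for Jon25Biii, 0.005 for Mst57Da, 0.001 for yip7, -0.11 for Tbh, -0.001 for kay and -0.012 for slo. With the body-tissue covariate they were -0.099 for Tbh and -0.034 for kay. With one pair left out, Drs ranged from -0.083 to 0.392 and kay from -0.027 to 0.137.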

Other observations

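At 30 and 90 min, the 2 recovery times whose body-tissue lists stood at their unexposed level in both exposures, 18 genes or probe sets stood more than 1 log2 unit above air and 16 below. These genes were picked after their values were seen, so they carry no test. Beside those described above, the higher side held CG11825, with differences of 2.15 and 1.35 at 30 and 90 min, CG2065 with 1.34 and 1.35, CG6908 with 1.24 and 1.62, CG3348 with 2.15 and 1.75 and CG32512 with 2.55 and 1.18. CG3348 differed by 2.34 at 0 min but by 0.27 at 60 min. CG2065 stood below air at 180 and 210 min, by -1.78 and -0.89.

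The lower side held, beside antennal genes, GstE4 and phu, the gene CG30431, with differences of -2.20 and -2.15 at 30 and 90 min. It differed by 0.17 at 0 min and by -0.37 to -0.75 at 120, 180 and 210 min, so its wide gap lay between 30 and 90 min. Dr, a homeobox gene, stood below air at 30 and 90 min, by -1.44 and -1.06, but above it by 1.24 at 0 min.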
